A study of Homo sapiens with 18 samples.

Results

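The nuclear-encoded subunits of the oxidative phosphorylation complexes were followed in MDA-MB-231 cells depleted of fibrillarin. Members were the rows of the deposited gene table whose symbol belongs to the NDUFA, NDUFB, NDUFC, NDUFS and NDUFV families, SDHA to SDHD, the UQCR genes, the ubiquitous isoforms of the cytochrome oxidase subunits, or the ATP5F1, ATP5M and ATP5P genes of ATP synthase. This gave 73 of 17017 genes. Complex I held 36 of them, complex II 4, complex III 8, complex IV 10 and complex V 15. The rule used symbols only and no measured value, but it was set with earlier results of these data known. NDUFA4, which carries a complex I name but is now assigned to cytochrome oxidase, was counted by its symbol under complex I.

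The respiratory chain passes electrons from NADH, at complex I, and from succinate, at complex II, through coenzyme Q, complex III and cytochrome c to complex IV, which reduces oxygen. Complexes I, III and IV pump protons across the inner mitochondrial membrane, and complex V, the ATP synthase, uses the gradient to make ATP. Most subunits are encoded in the nucleus, translated on cytosolic ribosomes and imported. A smaller set is encoded in mitochondrial DNA and made by mitochondrial ribosomes, so each complex except complex II joins products of 2 genomes.

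MDA-MB-231 is a human triple-negative breast cancer line with a mesenchymal phenotype. Fibrillarin, the product of FBL, is a nucleolar enzyme that, guided by small RNAs, methylates the ribose of chosen ribosomal RNA bases. All cells, controls included, carried a pLKO.1 lentiviral vector and were kept for 96 h in puromycin at 1 µg/ml, then given fresh medium. On the following day they received cycloheximide, which arrests elongating ribosomes, at 100 µg/ml for 5 min before lysis. SC cells carried the scramble control, and SH2 and SH3 cells carried 1 of 2 hairpins against FBL. The labels do not say which hairpin is the knockdown named 1 or 2. From each cleared lysate, undigested cytoplasmic RNA (IN) and ribosome-protected fragments (RPF, here footprints) were sequenced, with 3 replicates in each of the 6 groups. Nothing in the labels says that replicates came from separate cultures, so p-values measure only the spread between these samples, which may be technical. In bulk lysates a change in the number of expressing cells and a change in RNA per cell cannot be told apart.

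The RNA libraries held 23469830 to 27629488 counts and the footprint libraries 1662705 to 6098648, so footprint values carry more counting error. CPM is the read count normalised to sequencing depth, with library totals scaled by TMM factors within RNA or within footprint libraries. FBL RNA was 395, 349 and 421 CPM in SC, 1.26, 4.52 and 11.2 in SH2, and 3.36, 4.15 and 2.95 in SH3. Its log2 change was -6.08 in SH2 and -6.80 in SH3. Of markers of the line, VIM, CD44, EGFR, MSN, CAV1, AXL and KRT18 averaged 163 to 5579 CPM in SC RNA, while ESR1 and PGR were at or below 0.0816 CPM in every RNA library. Of the other markers expected to be low or absent, CDH1 averaged 0.337 CPM in SC RNA, ESRP1 0.296 and EPCAM 5.66. ERBB2 was not low, at 95.3 CPM. Plain library totals shifted the median log2 change of all genes in RNA to 0.11 with SH2 (0.01 with TMM) and 0.12 with SH3 (0.03 with TMM).

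Promoters are shown first, because many genes of this group are known targets of the factors NRF1, YY1 and the ETS protein GABP. RefSeq promoter windows on GRCh38.p14, running from 250 bases before to 50 bases after each annotated start, were found for 60 of the 73 members. The letters GCGCATGC (NRF1), CCGGAAG (ETS family) and AAGATGGC (YY1) were searched on both strands, and none of the 3 motifs contains another. NRF1 letters were present for 14 of the 60 members (23.3%) and for 3.68% of 27305 genes. The 27305 are all genes with a RefSeq window, not only those measured or expressed in these cells. The motifs were picked because many of these members are known targets, so higher shares among members are no new result. ETS letters were present for 20 members (33.3%) against 12.2% of all genes, and YY1 letters for 11 members (18.3%) against 3.52%. At least 1 of the 3 motifs was found for 35 members (58.3%) and for 17.6% of all genes. Among members with a window, 10 of the 21 whose RNA fell with both hairpins held a motif, as did 1 of the 4 whose RNA rose with both. A match is a match of letters only.

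The 4 windows below were chosen because their genes carry main results given further on: COX5B rose with both hairpins, ATP5PF fell with both, and ATP5PD and UQCR10 fell much further with SH2 than with SH3. Sequences read 5' to 3' along the gene, and capitals mark the motif letters on either strand. COX5B lies on the plus strand at chr2:97645812-97646111, with NRF1 letters beginning at position -136 from the start and ETS letters at -37 and -5. ATP5PF has 2 windows on the minus strand. The one printed, at chr21:25735005-25735304, holds all 3 motifs, NRF1 at -120, YY1 at -57 and ETS at -30, and the other, at chr21:25734855-25735154, holds ETS and YY1 letters but no NRF1 letters. ATP5PD lies on the minus strand at chr17:75046920-75047219, with ETS letters at -101. UQCR10 lies on the plus strand at chr22:29767119-29767418 and holds none of the 3.
COX5B: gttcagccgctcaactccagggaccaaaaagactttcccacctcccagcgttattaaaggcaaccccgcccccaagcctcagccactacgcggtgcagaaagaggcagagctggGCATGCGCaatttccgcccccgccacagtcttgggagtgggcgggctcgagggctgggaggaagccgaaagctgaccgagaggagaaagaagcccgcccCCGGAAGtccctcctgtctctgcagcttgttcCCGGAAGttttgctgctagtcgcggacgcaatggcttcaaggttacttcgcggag
ATP5PF: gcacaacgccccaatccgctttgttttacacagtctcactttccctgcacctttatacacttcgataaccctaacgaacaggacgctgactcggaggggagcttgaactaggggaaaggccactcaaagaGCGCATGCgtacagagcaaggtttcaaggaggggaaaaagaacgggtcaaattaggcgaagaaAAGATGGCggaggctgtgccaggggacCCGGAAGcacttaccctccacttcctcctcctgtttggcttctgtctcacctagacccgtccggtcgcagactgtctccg
ATP5PD: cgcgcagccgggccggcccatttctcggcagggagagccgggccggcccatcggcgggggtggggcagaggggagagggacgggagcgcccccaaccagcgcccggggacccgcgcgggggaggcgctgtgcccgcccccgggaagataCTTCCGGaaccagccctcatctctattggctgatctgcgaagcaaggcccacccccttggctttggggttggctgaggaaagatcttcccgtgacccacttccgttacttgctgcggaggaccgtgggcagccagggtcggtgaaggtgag
UQCR10: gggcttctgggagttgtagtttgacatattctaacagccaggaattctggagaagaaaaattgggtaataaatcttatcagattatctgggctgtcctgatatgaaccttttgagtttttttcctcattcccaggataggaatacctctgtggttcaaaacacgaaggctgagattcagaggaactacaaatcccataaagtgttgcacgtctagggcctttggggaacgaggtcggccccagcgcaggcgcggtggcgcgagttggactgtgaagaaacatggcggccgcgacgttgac
The printed windows show that motif content differs between members that moved the same way: of the 2 with the steepest fall in SH2 RNA among those printed, 1 holds ETS letters and the other holds no motif.

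In RNA, most members that changed after fibrillarin depletion fell, and the falls were modest in size. With SH2, 37 of 73 members fell and 8 rose (adjusted p under 0.05 in edgeR's quasi-likelihood test, adjusted over all genes). In the same fit 61.4% of all genes were called, 31.1% higher and 30.4% lower. With SH3, 37 members fell and 9 rose, where 53.0% of all genes were called, 27.8% higher and 25.2% lower. The share of members called was thus near that of all genes, and the split was toward lower values. The median log2 change of the members was -0.27 in SH2 and -0.24 in SH3, against 0.01 and 0.03 over all genes tested. With plain library totals the SH3 split was 11 higher and 20 lower, and the member medians were -0.18 and -0.15. Without the third SC replicate the SH3 count dropped to 27, with 6 higher and 21 lower.

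Across the hairpins, 29 members fell with both and 6 rose with both (NDUFA2, NDUFB9, NDUFV3, COX5B, COX7C and ATP5F1B). A further 10 were called with SH2 only, 11 with SH3 only and 17 with neither, and none was called in opposite directions. Over all 12710 genes, 18.2% fell and 19.6% rose with both hairpins, 21.6% were called with SH2 only, 13.2% with SH3 only, 25.4% with neither and 1.92% in opposite directions. The 2 comparisons share their SC libraries. The 29 included 12 complex I genes, 1 of complex II, 4 of complex III, 4 of complex IV and 8 of complex V. The summed share of all RNA counts that fell on members was 0.838% ± 0.036 (SD, n = 3) in SC. It was 0.825% ± 0.022 with SH2 and 0.841% ± 0.029 with SH3 (n = 3 each). These ranges overlapped, although far more members fell than rose. The share was taken over plain library totals, while the member changes used totals scaled by TMM. The reason for the level share was not tested.

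Footprints moved in the same direction. Of the 71 members tested, 28 fell and 3 rose with SH2, where 44.2% of all genes were called, 21.0% higher and 23.2% lower. With SH3, 29 fell and 5 rose, where 35.9% of all genes were called, 16.9% higher and 19.0% lower. The member medians were -0.24 and -0.37, against -0.00 and -0.01 over all genes. With both hairpins, 22 members fell and 3 rose (COX5B, COX7C and ATP5F1B), where 12% of all genes (1245 of 10345) fell and 10.8% rose with both. The members' share of footprint counts was 1.33% ± 0.048 (SD, n = 3) in SC. It was 1.16% ± 0.057 with SH2 and 1.15% ± 0.0098 with SH3 (n = 3 each), and the 3 SC libraries lay above all 6 hairpin libraries.

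**Figure D1:**
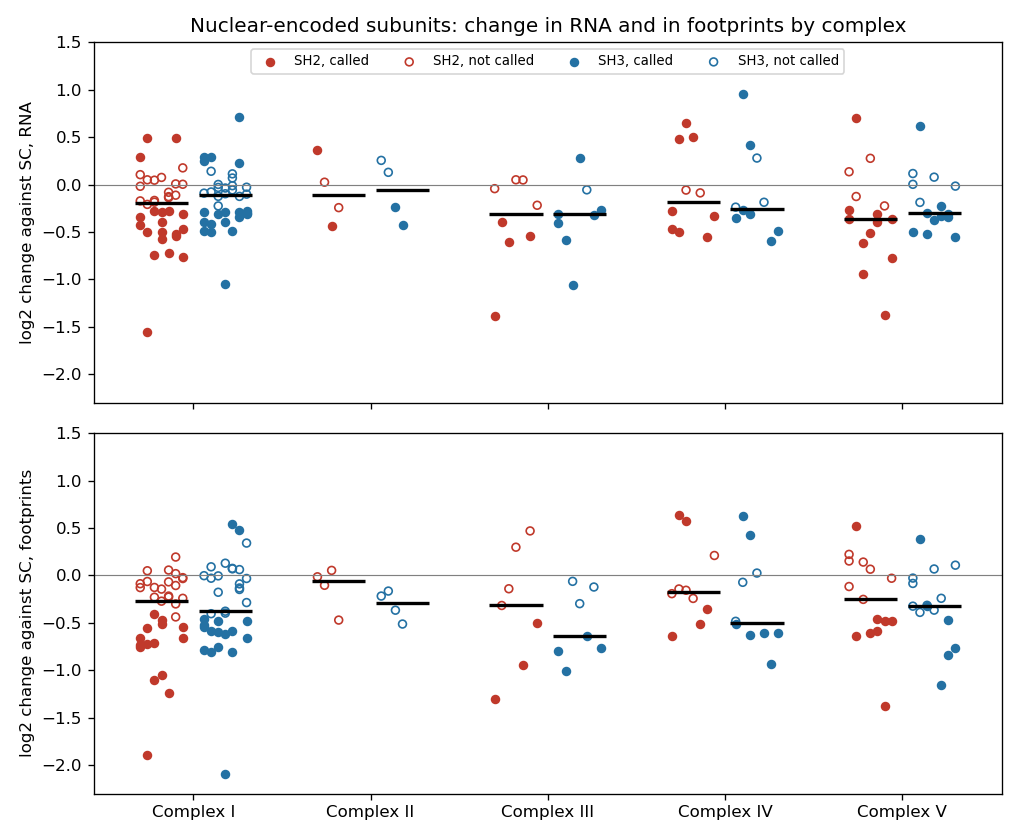
Log2 change against SC (vertical axis) of each member in RNA (upper panel) and footprints (lower panel), by complex, for SH2 (red) and SH3 (blue). Filled points passed adjusted p under 0.05, open points did not, and black bars are medians, which lie below 0 in every complex.

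Complex I, which takes electrons from NADH, has a core of conserved subunits that hold the flavin and iron-sulfur clusters and a large set of accessory subunits around it. The accessory genes carried most of the calls, but they number 29 against 7 core genes, so the count alone says little. The share of accessory genes called in RNA was 62.1% with each hairpin, beside 61.4% (SH2) and 53.0% (SH3) of all genes. For footprints the accessory share was 51.7% with SH2 and 58.6% with SH3, beside 44.2% and 35.9% of all genes. Of 29 accessory genes, 15 fell and 3 rose in SH2 RNA, and 14 fell and 4 rose in SH3 RNA. In footprints 15 of the 29 fell with each hairpin, none rose with SH2 and 2 rose with SH3. Of the 7 core genes, 2 fell in SH2 RNA (NDUFV2 and NDUFS8), and NDUFV2 also fell in SH3 RNA. None of the 6 core genes tested in footprints was called with either hairpin in edgeR, and 1 of them had an unadjusted p under 0.05 with SH2 and 0 with SH3. The difference between core and accessory genes was not tested.

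NDUFV1, the flavin-binding core subunit where NADH is oxidised, read 162, 141 and 162 CPM in SC RNA, 151, 126 and 153 in SH2 and 137, 148 and 141 in SH3. The groups overlapped, with log2 changes of -0.11 (SE 0.10) and -0.12 (SE 0.10). NDUFS1, the largest iron-sulfur subunit, changed by -0.13 (SE 0.11) in SH2 RNA and 0.11 (SE 0.11) in SH3 RNA, and neither passed. NDUFS3 was level in all groups, at 88.5 to 95.9 CPM in SC RNA and 83.5 to 95.9 in the hairpins.

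NDUFV2, the core subunit that carries an iron-sulfur cluster beside the flavin, fell in RNA from 35.4, 34.6 and 37.0 CPM in SC to 26.7, 26.4 and 24.0 in SH2 and 28.6, 27.7 and 30.3 in SH3. The fall was -0.47 (SE 0.10) and -0.30 (SE 0.10), and the SH3 call was lost without the third SC replicate. Its footprint counts were 2, 3 and 0 in SC, 0, 1 and 0 in SH2 and 0 in all 3 SH3 libraries, although RNA counts ran from 661 to 941. No footprint change can be read for NDUFV2 at these counts.

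NDUFC2, a small accessory subunit of the membrane arm, had the lowest mean change among complex I genes called with both hairpins. Its RNA was 37.8, 34.4 and 39.0 CPM in SC, 30.7, 28.7 and 25.5 in SH2 and 17.5, 19.6 and 16.5 in SH3, with no overlap between groups. The log2 change was -0.39 (SE 0.11, adjusted p = 0.00724) and -1.05 (SE 0.11, adjusted p = 6.04e-06). Its footprints read 46.6, 12.6 and 25.0 CPM in SC, 16.3, 14.0 and 12.3 in SH2 and 7.61, 6.51 and 6.66 in SH3. The SC libraries spread widely and overlapped SH2, and all 3 SH3 libraries lay lower. The footprint change was -1.05 (SE 0.32) in SH2, a call lost without SC replicate 1 or SH2 replicate 3, and -2.09 (SE 0.38) in SH3. A read-through gene that joins NDUFC2 to KCTD14 is also in the table, so the split of reads between them is uncertain.

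NDUFA2, an accessory subunit of the matrix arm, was the complex I gene with the highest mean RNA change. It rose from 35.3, 39.1 and 38.2 CPM in SC to 50.5, 52.7 and 55.5 in SH2 and 59.6, 67.2 and 58.4 in SH3, and the groups did not overlap. The log2 change was 0.50 (SE 0.10) and 0.72 (SE 0.10). In footprints it was called with SH3 only, at 0.48 (SE 0.16), and that call was lost without SC replicate 2, SH3 replicate 2 or SH3 replicate 3.

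NDUFA12, another matrix-arm accessory subunit, fell in RNA by -0.58 (SE 0.09) and -0.40 (SE 0.09). Its footprints read 237, 207 and 182 CPM in SC, 152, 159 and 127 in SH2 and 136, 139 and 132 in SH3. All 6 hairpin libraries lay below SC, with changes of -0.52 (SE 0.14) and -0.62 (SE 0.14).

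NDUFB11, a membrane-arm accessory subunit, showed lower footprints with RNA that did not pass the test. Its RNA was 86.7, 81.8 and 85.0 CPM in SC, 89.0, 74.6 and 86.9 in SH2 and 73.2, 88.1 and 76.9 in SH3, and all groups overlapped. Its footprints were 126, 102 and 110 CPM in SC, 76.3, 68.1 and 69.3 in SH2 and 60.3, 67.8 and 68.0 in SH3, with every hairpin library below SC. The footprint fall was -0.67 (SE 0.14, adjusted p = 0.00109) and -0.78 (SE 0.14, adjusted p = 0.000536). NDUFS6, a zinc-binding accessory subunit, and COX6B1 of complex IV were the other 2 members with footprints lower in both hairpins and RNA called in neither. NDUFS6 footprints were 160, 150 and 177 CPM in SC and 95.1 to 112 in the 6 hairpin libraries.

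Complex II, succinate dehydrogenase, is wholly nuclear-encoded and also serves the tricarboxylic acid cycle. None of its 4 genes passed in footprints with either hairpin in edgeR, where the unadjusted p was under 0.05 for 0 genes in SH2 and 1 in SH3. Of all genes, 44.2% (SH2) and 35.9% (SH3) were called in footprints. In RNA, SDHC, a membrane anchor that binds heme, fell from 91.1, 87.4 and 87.6 CPM in SC to 64.6, 69.8 and 62.1 in SH2 and 79.0, 74.0 and 72.5 in SH3. The changes were -0.44 (SE 0.09) and -0.24 (SE 0.09), the second lost when any of 5 libraries was left out. SDHA, the flavoprotein, rose in SH2 RNA by 0.37 (SE 0.12), a call lost without SC replicate 2, SC replicate 3 or SH2 replicate 3. SDHB, the iron-sulfur subunit, read 126 to 139 CPM in SC RNA and 125 to 155 in the hairpins and was not called. SDHD was called lower in RNA with SH3 only. Thus 1 of the 4 genes fell and 1 rose in SH2 RNA, and 2 fell and 0 rose in SH3 RNA. Of all genes, 61.4% (SH2) and 53.0% (SH3) were called in RNA.

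Complex III, the cytochrome bc1 complex, lost RNA for 4 of 8 genes with SH2 and 6 with SH3, and 1 rose with SH3. In footprints 3 of the 7 tested fell with SH2 and 4 with SH3, and none rose. The share called in RNA was 50% with SH2 and 87.5% with SH3, beside 61.4% and 53.0% of all genes. For footprints it was 42.9% and 57.1%, beside 44.2% and 35.9%. The Rieske iron-sulfur protein UQCRFS1, which hands electrons to cytochrome c1, fell in both measures. Its RNA was 207, 199 and 225 CPM in SC, 138, 147 and 149 in SH2 and 159, 172 and 174 in SH3. Its footprints were 253, 258 and 266 CPM in SC, 153, 119 and 132 in SH2 and 161, 166 and 170 in SH3. Groups of hairpin libraries lay wholly below SC in both. The RNA change was -0.54 (SE 0.09) and -0.32 (SE 0.09), and the footprint change -0.95 (SE 0.13, adjusted p = 3.61e-05) and -0.64 (SE 0.13, adjusted p = 0.00131).

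UQCR10, a small supernumerary subunit, gave the lowest RNA change of the complex with SH2. RNA was 40.7, 34.5 and 37.2 CPM in SC, 16.2, 14.7 and 12.3 in SH2 and 29.8, 28.7 and 26.6 in SH3. Footprints were 111, 85.5 and 82.4 CPM in SC, 41.5, 37.3 and 35.0 in SH2 and 63.8, 52.7 and 46.3 in SH3. The 3 groups were ordered SC, SH3, SH2 without overlap in both measures. The RNA change was -1.38 (SE 0.12) and -0.40 (SE 0.12), and the footprint change -1.30 (SE 0.17) and -0.79 (SE 0.17).

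UQCRB, which sits at the quinone-reducing site, showed the other order. Its RNA was 238, 263 and 258 CPM in SC, 171, 179 and 148 in SH2 and 132, 123 and 110 in SH3, a change of -0.61 (SE 0.10) and -1.06 (SE 0.10). Its footprints were 436, 400 and 368 CPM in SC, 364, 296 and 308 in SH2 and 220, 193 and 188 in SH3. They fell with SH3 (adjusted p = 5.64e-05 in edgeR), and with SH2 the value was -0.32 (SE 0.13, adjusted p = 0.0638, or 0.0285 with the replicate block). The small subunit UQCRQ fell in footprints by -0.50 (SE 0.14) and -0.77 (SE 0.14). Its RNA was called with SH3 only, at -0.30 (SE 0.10), a call lost without SC replicate 3.

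The core protein UQCRC1 was higher in SH3 RNA by 0.28 (SE 0.09), lost without SH3 replicate 2, and its footprints were not called. UQCRH, the hinge protein, was lower in SH3 RNA by -0.27 (SE 0.09), lost without SC replicate 2 or 3. UQCR11 RNA fell by -0.40 (SE 0.14) with SH2 and -0.59 (SE 0.14) with SH3, and the SH2 call was lost when any of 4 libraries was left out. UQCR11 had 0 footprint counts in all 9 footprint libraries, against 377 to 675 RNA counts. Over the summed 31910112 footprint counts, a count of 0 allows up to 3 counts, or 0.0940 CPM without scaling, for counting error only.

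Complex IV, cytochrome c oxidase, held genes that moved in both directions. In SH2 RNA 5 of 10 fell and 3 rose, and in SH3 RNA 5 fell and 2 rose. In footprints 3 fell and 2 rose with SH2, and 5 fell and 2 rose with SH3. COX4I1, the largest nuclear-encoded subunit and an early assembly partner, read 496, 458 and 551 CPM in SC footprints, 297, 352 and 321 in SH2 and 361, 353 and 342 in SH3. All hairpin libraries lay below SC, with footprint changes of -0.63 (SE 0.13) and -0.51 (SE 0.13). Its RNA changes were -0.28 (SE 0.08) and -0.35 (SE 0.08), and the first was not called with plain library totals (adjusted p = 0.0606). COX5A fell in RNA by -0.50 (SE 0.10) and -0.27 (SE 0.10), the second lost without SC replicate 3 or SH3 replicate 1, and in footprints it read -0.14 (SE 0.17) and -0.07 (SE 0.17), not called.

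COX5B and COX7C were the complex IV genes that rose in both measures with both hairpins. COX5B, a zinc-binding matrix subunit, read 108, 122 and 116 CPM in SC RNA, 196, 169 and 177 in SH2 and 152, 163 and 148 in SH3. Its footprints were 136, 112 and 145 CPM in SC, 218, 189 and 182 in SH2 and 176, 192 and 161 in SH3. No group overlapped SC. The RNA change was 0.65 (SE 0.09) and 0.42 (SE 0.09), and the footprint change 0.58 (SE 0.14) and 0.42 (SE 0.14), the last lost without SC replicate 2, SH3 replicate 1 or SH3 replicate 2.

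COX7C, a small membrane subunit, read 48.8, 85.1 and 65.7 CPM in SC RNA, 80.1, 108 and 89.3 in SH2 and 124, 136 and 128 in SH3. SC and SH2 overlapped, and SH3 lay above both. The RNA change was 0.48 (SE 0.16) in SH2, lost without SC replicate 1, SC replicate 3 or SH2 replicate 2, and 0.96 (SE 0.16) in SH3. The footprint change was 0.64 (SE 0.18) and 0.63 (SE 0.18), lost without SH2 replicate 1 and without SC replicate 3, respectively. COX6C, another small membrane subunit, moved the other way, with RNA changes of -0.55 (SE 0.10) and -0.59 (SE 0.10). Its footprints were 331, 375 and 343 CPM in SC, 263, 309 and 247 in SH2 and 181, 190 and 176 in SH3. They fell by -0.35 (SE 0.13, lost when any of 4 libraries was left out) and -0.94 (SE 0.13).

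**Figure D2:**
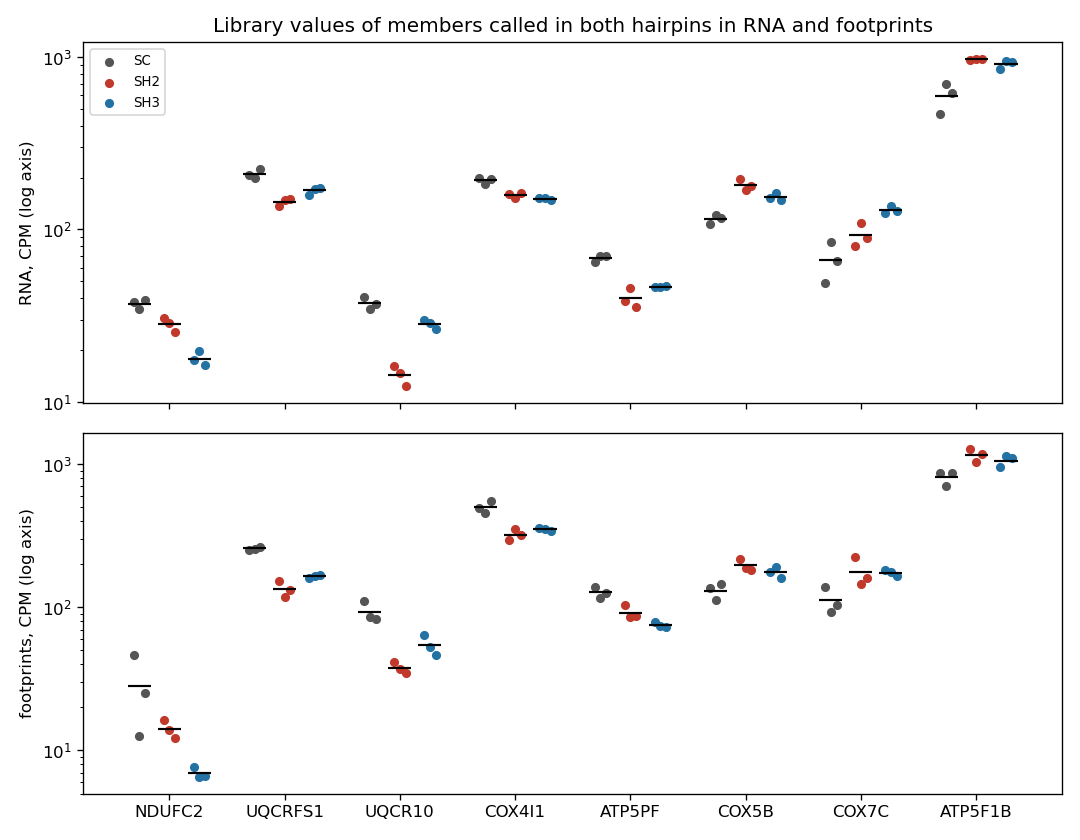
CPM of each library (points, logarithmic axis) and group mean (bars) in RNA (upper panel) and footprints (lower panel) for 8 members called with both hairpins in both measures. Means of NDUFC2, UQCRFS1, UQCR10, COX4I1 and ATP5PF lie lower in SH2 (red) and SH3 (blue) than in SC (grey), and those of COX5B, COX7C and ATP5F1B higher, with overlap of SC and SH2 libraries for NDUFC2 footprints and COX7C RNA.

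Complex V, the ATP synthase, has a catalytic F1 head, a rotating c ring in the membrane, and a peripheral stalk that holds the head still. RNA of 10 of its 15 genes fell and 1 rose with SH2, and 9 fell and 1 rose with SH3. In footprints 7 fell and 1 rose with SH2, and 5 fell and 1 rose with SH3. The share called in RNA was 73.3% with SH2 and 66.7% with SH3, beside 61.4% and 53.0% of all genes. For footprints it was 53.3% and 40%, beside 44.2% and 35.9%. The gene that rose in each case was ATP5F1B, the catalytic beta subunit. Its RNA was 468, 699 and 619 CPM in SC, 958, 975 and 975 in SH2 and 856, 946 and 931 in SH3. Its footprints were 863, 703 and 870 CPM in SC, 1270, 1041 and 1186 in SH2 and 951, 1139 and 1100 in SH3. All hairpin libraries lay above all SC libraries. The RNA change was 0.70 (SE 0.12) and 0.61 (SE 0.12), and the footprint change 0.52 (SE 0.13) and 0.39 (SE 0.13). The last of these was lost without SC replicate 2, SH3 replicate 2 or SH3 replicate 3.

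The alpha subunit ATP5F1A, which forms the head with beta in equal number, was not called in either measure. Its RNA was 475, 540 and 518 CPM in SC, 578, 554 and 553 in SH2 and 551, 564 and 548 in SH3, with changes of 0.14 (SE 0.09) and 0.12 (SE 0.09). The epsilon subunit ATP5F1E fell in RNA by -0.30 (SE 0.09) and -0.33 (SE 0.09), the first lost without SC replicate 3. Its footprints were 467, 282 and 349 CPM in SC, 275, 260 and 266 in SH2 and 172, 138 and 183 in SH3. The SH2 change of -0.46 (SE 0.17) was lost when any of 5 libraries was left out, and the SH3 change was -1.16 (SE 0.17).

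The 4 peripheral stalk genes, ATP5PB, ATP5PD, ATP5PF and ATP5PO, all fell in SH2 RNA, and 3 of the 4 fell in SH3 RNA. Of all genes, 30.4% and 25.2% fell there. In footprints 3 fell with SH2 and 2 with SH3, where 23.2% and 19.0% of all genes fell. ATP5PD, the d subunit, read 285, 219 and 257 CPM in SC RNA, 91.0, 109 and 93.1 in SH2 and 204, 213 and 195 in SH3. Its footprints were 297, 358 and 292 CPM in SC, 143, 106 and 117 in SH2 and 228, 227 and 228 in SH3. SH2 lay far below both other groups. The RNA change was -1.38 (SE 0.11, adjusted p = 2.89e-07) in SH2 and -0.31 (SE 0.11, adjusted p = 0.0262) in SH3. The footprint change was -1.37 (SE 0.14) and -0.47 (SE 0.14). The RNA call with SH3 was lost without SC replicate 1, SC replicate 3 or SH3 replicate 3, and the footprint call with SH3 without SC replicate 2, SH3 replicate 2 or SH3 replicate 3. ATP5PF, coupling factor 6, read 64.7, 70.0 and 70.1 CPM in SC RNA, 38.5, 45.8 and 35.3 in SH2 and 46.2, 46.5 and 47.3 in SH3. Its RNA change was -0.78 (SE 0.10) and -0.55 (SE 0.10), and its footprint change -0.48 (SE 0.13) and -0.77 (SE 0.14).

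The c ring is built of 1 mature protein encoded by 3 genes that differ in their import sequences. ATP5MC3 fell in RNA with both hairpins, by -0.36 (SE 0.08) and -0.50 (SE 0.08). ATP5MC2 fell with SH2 only, by -0.36 (SE 0.10), and read -0.02 (SE 0.09) with SH3. ATP5MC1 fell with SH3 only, by -0.35 (SE 0.12), a call lost without SC replicate 3, SH3 replicate 1 or SH3 replicate 3. In footprints ATP5MC1 was the one called, at -0.48 (SE 0.19) and -0.84 (SE 0.19). Its SH2 call was lost without SC replicate 1, SH2 replicate 1 or SH2 replicate 2. Between hairpins, the difference of ATP5MC2 RNA was -0.34 (SE 0.10, adjusted p = 0.0114), lost without SH2 replicate 1, SH3 replicate 2 or SH3 replicate 3.

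RNA and footprint changes of the 71 members were correlated. Pearson's r across these genes was 0.69 (Spearman 0.55) in SH2 and 0.81 (Spearman 0.78) in SH3. Genes are not independent replicates, and RNA and footprints of a gene came from the same groups of cells, so this is a description. With SH2, 20 members were lower in both measures and 3 higher in both, 20 were called in RNA only and 8 in footprints only. Over the 10335 genes tested in both measures these shares were 19.4%, 17.5%, 27.0% and 6.91%. With SH3 the member numbers were 24, 4, 16 and 6, against 15.6%, 14.3%, 25.7% and 5.92% of the same genes. No member was called in opposite directions. Counting both hairpins and both measures, 14 members fell throughout and 3 rose throughout, against 9.64% and 9% (930 of 10335) of the genes tested in both measures. The 14 are 48.3% of the members lower in RNA with both hairpins, which include NDUFV2 and UQCR11, not tested in footprints. They are 63.6% of the members lower in footprints with both. Over all genes, 996 fell throughout, beside 2319 that fell in RNA with both hairpins and 1245 in footprints with both.

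**Figure D3:**
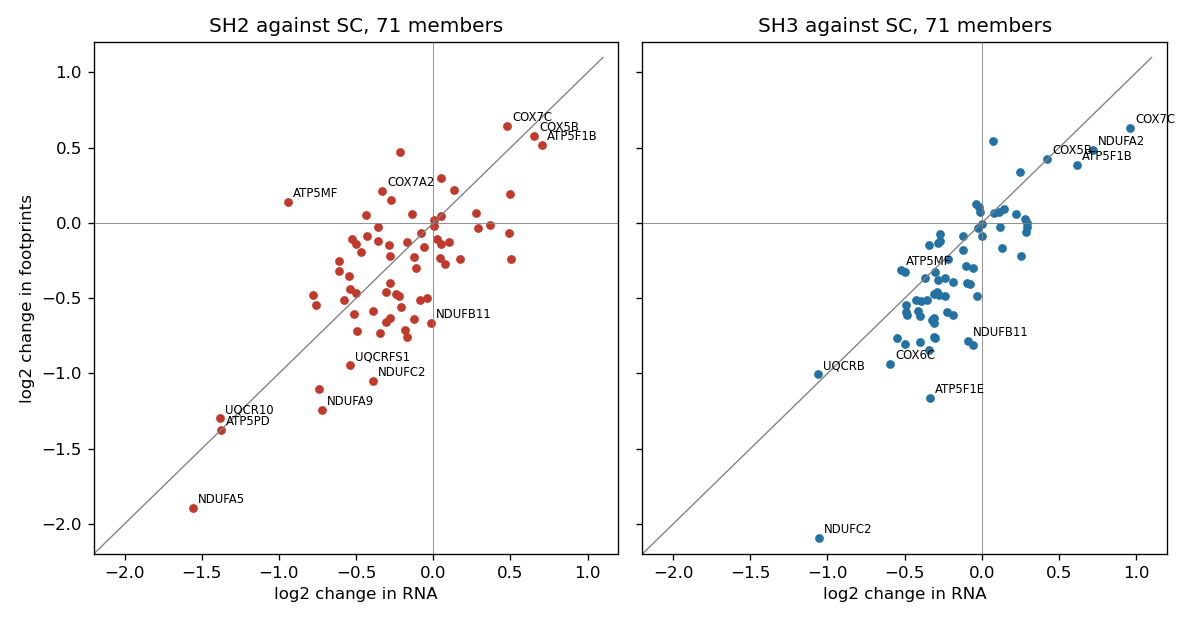
Log2 change in RNA (horizontal axis) against log2 change in footprints (vertical axis) for the 71 members tested in both, SH2 at left and SH3 at right, with the line of equal change in grey. Most points lie in the lower left, and ATP5MF in SH2 lies above it and NDUFB11 below it.

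Translational efficiency is the change in footprints beyond the change in RNA, tested as an interaction in 1 fit of all 18 libraries. Per-library ratios were not used, because RNA and footprint libraries with the same number did not deviate together in every group. In SC and SH2, RNA library 1 deviated with footprint library 2 (correlations of 0.58 and 0.57) and RNA library 2 with footprint library 1 (0.47 and 0.50), so the numbers 1 and 2 may not mark the same lysate in the 2 kinds of library. The correlation of same-numbered deviations was -0.50, -0.47 and 0.27 in SC, -0.31, -0.31 and 0.51 in SH2, and 0.43, 0.29 and 0.21 in SH3. The fitted test does not use the numbers. Efficiency was read for the 71 members tested in footprints. With SH2, 3 of the 71 passed, 2 higher and 1 lower, where 3.90% of all 12531 genes in the fit passed, 1.44% higher and 2.46% lower, and 4.61% of the genes also tested in footprints. That count depended on the fit: the DESeq2 Wald test called 13 (5 higher, 8 lower), plain library totals gave 5 with the split turned to 1 higher and 4 lower, and the replicate block gave 7 (3 higher, 4 lower). With SH3, 0 members passed in edgeR, where 0.686% of all genes did, 12 members had an unadjusted p under 0.05, and the DESeq2 Wald test called 3. Between SH2 and SH3, 0 passed in edgeR, against 0.0160% of all genes, with 17 at an unadjusted p under 0.05 and 5 called by DESeq2. The member medians were -0.11 in SH2 and -0.16 in SH3, against -0.02 and -0.04 over all genes.

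ATP5MF, the f subunit in the membrane part of ATP synthase, had the highest of the 3 values in SH2. Its RNA was 95.7, 91.0 and 92.4 CPM in SC, 46.5, 51.3 and 47.6 in SH2 and 67.7, 62.7 and 63.9 in SH3. Its footprints were 44.6, 61.5 and 61.8 CPM in SC, 64.4, 54.1 and 66.0 in SH2 and 42.1, 37.7 and 54.0 in SH3. RNA thus separated all groups, while footprints of SC and SH2 overlapped. The RNA fell by -0.94 (SE 0.09) and -0.52 (SE 0.09), and the footprint values were 0.14 (SE 0.18) and -0.32 (SE 0.18), not called. Translational efficiency rose with SH2 by 1.07 (SE 0.19, adjusted p = 0.00303) and read 0.22 (SE 0.19) with SH3. It kept its call in every alternative run for SH2. The difference between hairpins, 0.85 (SE 0.19), gave an adjusted p of 0.0899 in edgeR, or 0.0361 with the replicate block. A read-through gene joining ATP5MF to PTCD1 is in the table, and RefSeq names 7 pseudogenes of ATP5MF, so its counts are uncertain.

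COX7A2, a small complex IV subunit, fell in RNA with both hairpins, by -0.33 (SE 0.09) and -0.48 (SE 0.09), the first lost without SC replicate 3. Its footprints were 188, 219 and 201 CPM in SC, 227, 232 and 243 in SH2 and 124, 133 and 140 in SH3. Footprints were thus lowest in SH3, with a fall of -0.61 (SE 0.13), and the SH2 value was 0.21 (SE 0.12), not called. Its translational efficiency was higher in SH2 by 0.53 (SE 0.14, adjusted p = 0.0348). That call was lost when any of 5 replicates was left out, the RNA and footprint libraries of that number together. It was also lost with plain library totals. NDUFB11 had the lower value, -0.66 (SE 0.16, adjusted p = 0.0257) in SH2 and -0.68 (SE 0.17, adjusted p = 0.0607) in SH3. The SH2 call of NDUFB11 was lost when any of 4 replicates was left out in the same way.

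Among values that did not pass, UQCRH read 0.66 (SE 0.22) in SH2 and 0.16 (SE 0.23) in SH3, and NDUFC2 read -0.70 (SE 0.36) and -1.06 (SE 0.42). NDUFV2 and UQCR11 entered this fit through their RNA counts and are left out of the counts and medians. The ratio of mean footprint CPM to mean RNA CPM ran from 0.171 for SDHA to 3.73 for NDUFS6 over the 71 members in SC. Its median was 1.44, and 55 members lay above 1. RefSeq names 4 pseudogenes of SDHA and 1 of NDUFS6. Annotation and counting are not given in the sources used here, so ratios may not be comparable between genes. In SH2 and SH3 the ratio of NDUFS6 was 2.60 and 2.89, and that of SDHA 0.132 and 0.127.

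The 2 hairpins differed from each other for some members. In RNA 20 of 73 members were called between SH2 and SH3, 15 lower and 5 higher in SH2, where 39.3% of all genes were called, 18.9% higher and 20.4% lower. In footprints 10 of 71 were called, 4 lower and 6 higher in SH2, where 23.8% of all genes were called, 12.1% higher and 11.6% lower. The share of members called was below that of all genes in both. Leaving out 1 library took the RNA count to between 10 and 25. It was 12 when replicate 1 of SH2 was left out and 11 when replicate 3 was, and 11, 12 and 10 when replicates 1, 2 and 3 of SH3 were left out in turn.

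NDUFA5, an accessory subunit of the matrix arm, gave the largest difference among members. Its RNA was 23.1, 28.6 and 29.7 CPM in SC, 10.5, 8.77 and 8.46 in SH2 and 23.4, 26.9 and 26.9 in SH3. Its footprints were 45.6, 32.4 and 52.5 CPM in SC, 8.89, 12.1 and 14.2 in SH2 and 37.5, 31.2 and 32.3 in SH3. SH2 lay below both other groups in both measures, while SC and SH3 overlapped in RNA. SH2 minus SH3 was -1.48 (SE 0.13, adjusted p = 2.47e-06) in RNA and -1.49 (SE 0.23, adjusted p = 0.000291) in footprints. RefSeq names 12 pseudogenes of NDUFA5. NDUFA9, which belongs to the quinone-facing part of the matrix arm, read 15.1, 17.5 and 16.9 CPM in SC RNA, 9.85, 10.9 and 9.32 in SH2 and 15.2, 16.2 and 16.2 in SH3, and SH2 minus SH3 was -0.67 (SE 0.12). In footprints NDUFA9 fell with both, by -1.24 (SE 0.18) and -0.81 (SE 0.18).

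ATP5PD differed by -1.06 (SE 0.11) in RNA and -0.90 (SE 0.14) in footprints, and UQCR10 by -0.98 (SE 0.12) in RNA. For UQCR10 footprints the difference was -0.51 (SE 0.18, adjusted p = 0.0453), a call lost when any of 5 libraries was left out. In the other direction, footprints of COX7A2 differed by 0.82 (SE 0.13) and those of ATP5F1E by 0.70 (SE 0.17), the latter lost without SH3 replicate 2. COX6C footprints differed by 0.58 (SE 0.13), and UQCRB differed by 0.45 (SE 0.10) in RNA and 0.69 (SE 0.14) in footprints.

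**Figure D4:**
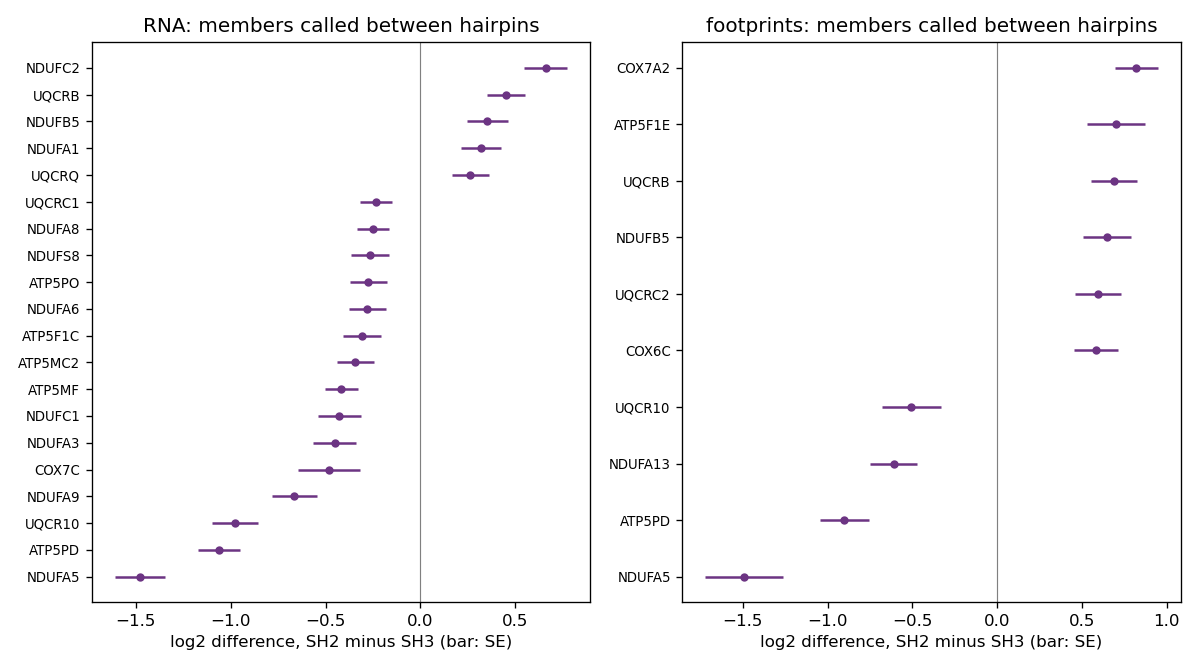
Difference in log2 value between SH2 and SH3 (points, bars SE) for the members called between the hairpins, 20 in RNA (left) and 10 in footprints (right). NDUFA5, ATP5PD and UQCR10 lie furthest below 0 in RNA, and COX7A2 and ATP5F1E furthest above 0 in footprints.

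Related genes of the pathway were counted in 7 lists and did not all show the members' split. Over all genes, 30.4% were lower and 31.1% higher in SH2 RNA, and 25.2% lower and 27.8% higher in SH3 RNA. In footprints 23.2% were lower and 21.0% higher with SH2, and 19.0% lower and 16.9% higher with SH3. The 13 subunits encoded in mitochondrial DNA were all lower in RNA with both hairpins, with a median of -1.52 in SH2 and -1.17 in SH3. In footprints all 13 were lower with SH2 and 4 with SH3. How much mitochondrial RNA the cleared lysates carried was not measured, so these values may also reflect differences in carry-over. MT-ND2, a proton-pumping subunit of complex I, fell by -2.05 (SE 0.23) in SH2 RNA and -1.46 (SE 0.22) in SH3 RNA. MT-CO1, the catalytic subunit of complex IV, fell by -1.28 (SE 0.19) and -0.57 (SE 0.19), the second lost without SC replicate 1 or SH3 replicate 2. The nuclear members' medians of -0.27 and -0.24 lie nearer to 0, and the difference between the sets was not tested.

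Of 7 tested nuclear subunits outside the member rule, 4 were lower and 1 higher in RNA with each hairpin, and 5 were lower in footprints with each. ATP5MK, a small ATP synthase subunit, fell by -1.48 (SE 0.12) and -0.67 (SE 0.11) in RNA. NDUFAB1, the mitochondrial acyl carrier protein that is also part of complex I, fell by -0.64 (SE 0.09) and -0.75 (SE 0.09), while DMAC2L rose by 0.55 (SE 0.11) and 0.50 (SE 0.11). ATP5MJ fell by -0.59 (SE 0.10) and -0.45 (SE 0.10).

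Assembly factors moved in both directions. Of 18 complex I assembly factors, 7 were lower and 4 higher in SH2 RNA, and 3 lower and 4 higher in SH3 RNA. These are 38.9% and 22.2% in SH2 and 16.7% and 22.2% in SH3, to be read beside the shares of all genes given above. COA1 fell by -0.79 (SE 0.10) and -0.47 (SE 0.10), TMEM126B by -0.90 (SE 0.10) and -0.34 (SE 0.10, not called with plain library totals), while NDUFAF8 rose by 0.50 (SE 0.15) and 0.49 (SE 0.15) and FOXRED1 by 0.31 (SE 0.12) and 0.40 (SE 0.12). Both FOXRED1 calls and the SH3 call of NDUFAF8 were lost when any of 2 or 3 libraries was left out: SC replicate 1, SC replicate 3 or SH2 replicate 3 for FOXRED1 with SH2, SC replicate 1 or SH3 replicate 2 with SH3, and SC replicate 2, SC replicate 3 or SH3 replicate 2 for NDUFAF8. Of 32 factors for complexes II to V, 5 were lower and 9 higher in SH2 RNA, and 5 lower and 11 higher in SH3 RNA. SURF1, needed to build complex IV, rose by 0.72 (SE 0.12) and 0.56 (SE 0.12), and COX15, which makes heme A, by 0.54 (SE 0.12) and 0.59 (SE 0.12). ATPAF1, a chaperone of the F1 head, rose by 0.41 and 0.37, and COX11, which delivers copper to COX1, fell by -0.26 (SE 0.10) and -0.27 (SE 0.10). The first COX11 call was lost when any of 4 libraries was left out, SC replicate 3 among them, and the second without SC replicate 3 or SH3 replicate 3. In footprints 1 of the 31 tested was higher and 9 lower with SH2, and 0 higher and 6 lower with SH3.

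Among 14 genes of cytochrome c and coenzyme Q synthesis, 6 were higher with each hairpin, and 5 and 3 were lower. CYCS, cytochrome c itself, fell by -0.88 (SE 0.11) and -0.45 (SE 0.11) in RNA and by -1.16 (SE 0.14) and -0.81 (SE 0.14) in footprints. PDSS1, which makes the coenzyme Q tail, fell by -0.68 (SE 0.12) and -0.60 (SE 0.12), while COQ9 rose by 1.21 (SE 0.10) and 1.01 (SE 0.10) and COQ8B by 0.99 (SE 0.15) and 0.44 (SE 0.15), the last lost when any of 4 libraries was left out. Of 14 tricarboxylic acid cycle genes, 8 were lower and 1 higher in SH2 RNA, and 5 lower and 1 higher in SH3 RNA. IDH2, the NADP-dependent isocitrate dehydrogenase, fell from 16.4, 16.3 and 21.2 CPM in SC to 3.57, 3.80 and 5.19 in SH2 and 3.08, 2.98 and 4.14 in SH3. SUCLG2 fell by -1.59 (SE 0.13) and -0.71 (SE 0.12) and FH by -0.54 (SE 0.10) and -0.36 (SE 0.10), and OGDH was the 1 that rose, by 0.36 (SE 0.09) and 0.32 (SE 0.09), the last lost without SH3 replicate 3.

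Of 14 regulators of mitochondrial gene expression, 6 were higher with each hairpin, and 4 and 2 were lower. ESRRA, a nuclear receptor that activates respiratory genes, rose by 1.29 (SE 0.11) and 0.93 (SE 0.11) in RNA and by 1.34 (SE 0.19) and 0.91 (SE 0.20) in footprints. PPARGC1A, its coactivator, rose in RNA by 0.84 (SE 0.18) and 0.98 (SE 0.18) from a level of 4.16, 6.14 and 4.21 CPM, while PPARGC1B fell by -0.58 (SE 0.19), lost without SC replicate 1 or SH2 replicate 2, and -0.67 (SE 0.19). TFAM, which packages and transcribes mitochondrial DNA, fell by -0.82 (SE 0.10) and -0.35 (SE 0.10) in RNA and by -0.95 (SE 0.13) and -0.61 (SE 0.13) in footprints. NRF1 and GABPA, whose motifs were searched above, were not called in RNA, at -0.07 (SE 0.13) and 0.01 (SE 0.13) for NRF1 and -0.08 (SE 0.13) and 0.06 (SE 0.11) for GABPA. YY1 RNA rose by 0.32 (SE 0.09) and 0.25 (SE 0.09), the latter lost when any of 4 libraries was left out, and its footprints were not called.

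**Figure D5:**
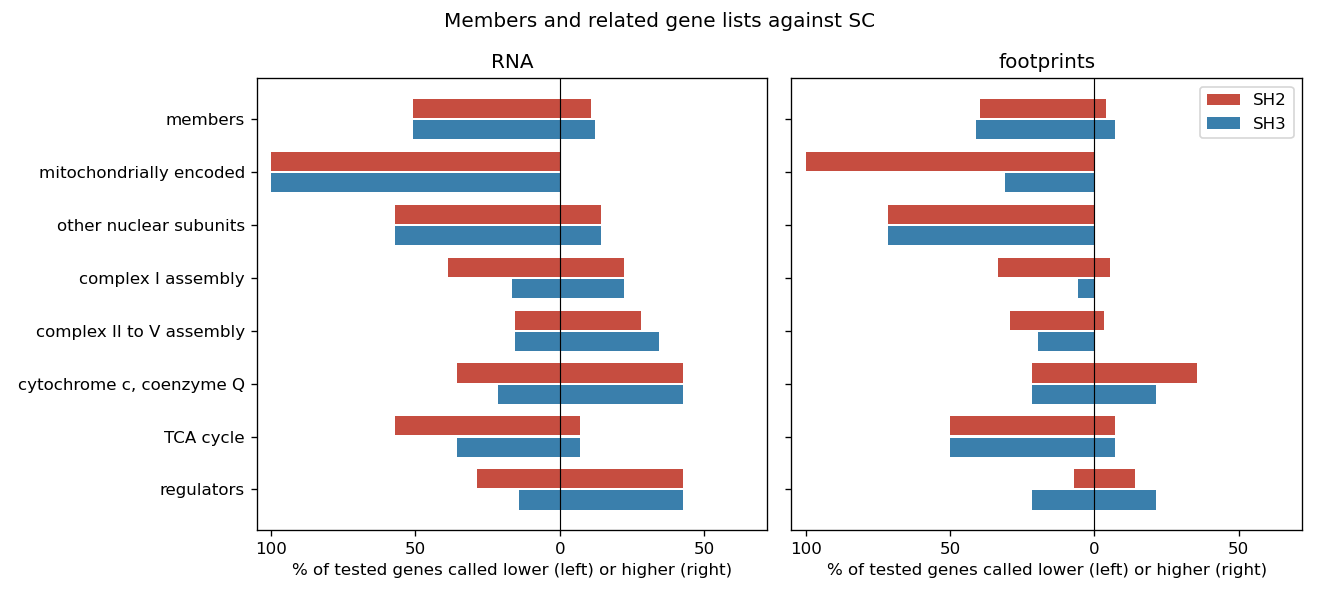
Percentage of tested genes called lower (bars to the left) or higher (bars to the right) against SC in RNA and in footprints, for the members and 7 related lists, SH2 in red and SH3 in blue. The mitochondrially encoded subunits reach 100% lower in RNA with both hairpins, and in RNA complex II to V assembly factors have more genes higher than lower.

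In the authors' deposited table, made with DESeq2, 8 members were higher and 39 lower in SH2 RNA, and 6 higher and 38 lower in SH3 RNA, at adjusted p under 0.05, where 54.7% and 49.4% of all genes with an adjusted p in that deposited table were called. For SH2 footprints the authors' deposited table had 3 members higher and 27 lower, and for SH3 footprints 5 higher and 29 lower, where 34.6% and 28.8% of all genes were called. RefSeq names pseudogenes for 47 of the 73 members, 199 in all and up to 18 for COX6C. None of these pseudogenes is a row of the table, and how reads matching several places were counted is not given in the sources used here.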

How the data were processed

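RNA and ribosome footprints were measured in 18 libraries, 3 each of SC, SH2 and SH3 for undigested RNA (IN) and footprints (RPF), grouped by the submitters' titles. The deposited gene table holds raw counts per gene for each library, per the file headers. Bowtie 1.2.2 and DESeq2 are named in the submitters' processing notes without roles. The genome build, annotation, counting tool and treatment of reads with several matches are not given in the sources used here. Further deposited columns hold normalised signal, and DESeq2 log2 fold changes with p-values and adjusted p-values made by the authors, per the file headers. Only the counts were tested here. Deposited columns for the ratio of footprints to RNA held identical values for SH2 and SH3 in all 17017 genes and were not used.

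Counts were tested with edgeR 4.0.16 in R 4.3.3 (quasi-likelihood, TMM, default low-count filter), separately for the 9 RNA libraries (12710 genes) and the 9 footprint libraries (10345 genes), and as an interaction over all 18 (12531 genes). P-values were adjusted by Benjamini and Hochberg over all genes, and called means adjusted p under 0.05. SE is the log2 change divided by the square root of F. The edgeR biological coefficient of variation was 11.6% in RNA and 15.1% in footprints. The code was tested on simulated data. Members and lists were chosen with earlier results of these data known. Named members were a fixed set of core subunits, the lowest and highest called with both hairpins per complex, those called or most extreme in translational efficiency, those that differed most between hairpins, and those without footprints. COX5B, ATP5PF, UQCRB, NDUFS6 and COX6B1 and the genes NRF1, GABPA and YY1 were added after their values were seen. Deviations of same-numbered SC and SH2 libraries correlated at 0.345 to 0.374 in RNA and 0.253 to 0.302 in footprints, so for SH2 against SC the numbers were taken to pair the samples, as a hint from the data and not from the labels. With SH3 the correlations ran from -0.134 to 0.476 in RNA and from -0.121 to 0.322 in footprints, and its numbers were not taken as pairs. The fits reported have no block. Calls that the replicate block changed among the named genes run in the alternatives are given at the end. Alternatives were DESeq2 1.42.0, other scalings and filters, a replicate block, thinned footprints and leaving out each replicate.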

Additional observations from a re-analysis of the deposited data

Results flagged for a closer look

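Of the members called between SH2 and SH3 in edgeR's test of that difference, the 4 with the largest difference in RNA and the 4 in footprints are listed, as SH2 minus SH3 on the log2 scale. In RNA they were NDUFA5 at -1.48, ATP5PD at -1.06, UQCR10 at -0.98 and NDUFA9 at -0.67. In footprints they were NDUFA5 at -1.49, ATP5PD at -0.90, COX7A2 at 0.82 and ATP5F1E at 0.70. FBL RNA itself was 1.26 to 11.2 CPM in SH2 and 2.95 to 4.15 in SH3, overlapping ranges, and the part of the remaining FBL level in these differences was not tested. The ATP5F1E difference was lost without SH3 replicate 2, and the other 7 values kept their call in every leave-one-out fit.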

How the results depend on the processing

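Of 597 named values, 218 were called, 153 of these kept their call in every alternative, and 0 changed sign. Member counts past a stricter adjusted p of 0.01 were 22 for SH3 RNA, 9 for RNA between hairpins, 20 for SH3 footprints and 1 for translational efficiency in SH2. Fitting only the groups compared gave 16 for footprints between hairpins and 1 for efficiency in SH2. For efficiency in SH2, plain library totals gave 5 (1 higher, 4 lower), the DESeq2 Wald test 13, and thinned footprints 1. For SH3 the unfiltered fit gave 1 and DESeq2 3, and between hairpins DESeq2 gave 5. The replicate block gave efficiency counts of 7 in SH2, 1 in SH3 and 2 between hairpins. A replicate block by lysate, which pairs RNA and footprint libraries of the same number, gave 1 in SH2. In SC and SH2 the numbers 1 and 2 may not mark the same lysate, so that count may rest on wrong pairs. For SH2 against SC, among the members named, the block added calls for UQCRB in footprints and for SDHC (0.49, adjusted p = 0.0463) and NDUFS6 (-0.54, adjusted p = 0.0488) in efficiency, and it took away none. ATP5MK, outside the member rule, gained a call in efficiency (0.64, adjusted p = 0.0443). Between hairpins the block added NDUFS1, UQCRFS1, MT-ND3 and MT-CO2 in RNA, and NDUFC2, SDHC, ATP5MF, MT-ND3 and CYCS in footprints. In efficiency it added ATP5MF and COX7A2 between hairpins. With SH3 against SC it added SDHC in footprints and ATP5F1E in efficiency (adjusted p = 0.0206), and took away COQ8B in footprints. In RNA the replicate block gave 47, 47 and 22, and in footprints 33, 38 and 15. Leaving out 1 replicate gave 37 to 45 for SH2 RNA, 27 (without SC replicate 3) to 40 for SH3 RNA, 10 to 25 for RNA between hairpins, 24 to 31 for SH2 footprints, 25 to 34 for SH3 footprints, 8 to 13 for footprints between hairpins, and 1 to 3, 0 to 1 and 0 to 0 for efficiency. The cause of these shifts was not tested. The smallest footprint library, with 1662705 counts, limits the precision of footprint and efficiency values.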
